A study of Mus musculus with 4 samples.

Results

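The circadian clock genes described here are Per1, Per2, Per3, Cry1, Nr1d1, Nr1d2, Dbp, Tef, Hlf and Arntl, measured here in a pair of pancreas-draining lymph nodes. They were taken as all array probes, other than control spots, whose transcript maps to one of these 10 symbols, which gave 16 probes of 41174, for 10 of the 17178 genes named on the array. Of these, 15 probes, covering all 10 genes, passed the filter on dim probes and were tested among 27603 probes. Tissue came from 4 female NOD mice aged 12 weeks, an inbred strain that develops autoimmune diabetes spontaneously, and no treatment is given in the labels. Each mouse gave a gastric lymph node (GLN), which is the left pancreatic one, and a pancreatico-duodenal lymph node (PDLN), on the right. RNA of both was hybridised together on 1 two-colour array, GLN in red (Cy5) and PDLN in green (Cy3). No array had the dyes exchanged, so a difference between nodes and a difference between dyes cannot be told apart. All differences below are log2 ratios of GLN over PDLN within a mouse, so a negative value means less signal in GLN.

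The circadian clock is a transcriptional feedback loop that runs in almost every cell. ARNTL (also called BMAL1) pairs with CLOCK, binds E-box sequences and drives the Per and Cry genes, whose proteins return to block that pair. The same pair drives Nr1d1 and Nr1d2, which encode the REV-ERB receptors that repress Arntl, and the PAR bZIP factors DBP, TEF and HLF, which act on D-box sequences of output genes. In lymph nodes this clock is known to set daily rhythms in lymphocyte traffic, and Per1 also responds directly to glucocorticoids.

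The promoters of Per1 and Hlf are shown first, because these were the clock genes described here with a probe that passed the test below. Sequences are from RefSeq on the assembly GRCm38.p6, 5′ to 3′ on the gene's strand, and capitals mark an exact match to a searched motif. The Per1 sequence, chr11:69098699-69098948 on the plus strand, lies inside the annotated span of Per1 (11, 69095108 to 69109965) and ends directly before 1 of 2 listed starts. Its capitals are an E-box. The Hlf sequence, chr11:90390918-90391167 on the minus strand, ends directly before the start of Hlf (11, 90336535 to 90390917). Its capitals are a cAMP response element (CRE), the site of CREB-type factors.
Per1 promoter: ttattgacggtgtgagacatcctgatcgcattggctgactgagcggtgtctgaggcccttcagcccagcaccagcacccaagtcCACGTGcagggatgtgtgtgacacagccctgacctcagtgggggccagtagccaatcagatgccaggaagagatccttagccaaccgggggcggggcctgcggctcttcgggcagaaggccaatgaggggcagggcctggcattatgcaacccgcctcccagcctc
Hlf promoter: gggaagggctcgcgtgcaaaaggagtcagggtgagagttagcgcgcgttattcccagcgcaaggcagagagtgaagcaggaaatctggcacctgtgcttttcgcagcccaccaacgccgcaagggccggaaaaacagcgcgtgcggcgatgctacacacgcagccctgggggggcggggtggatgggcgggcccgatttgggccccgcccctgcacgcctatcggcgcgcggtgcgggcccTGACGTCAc
Windows of 250 bases before to 50 bases after a start were searched on both strands for the E-box (CACGTG), the E-prime box (CACGTT), the D-box (TTATGTAA or TTACGTAA), the RORE and the CRE (TGACGTCA), and no motif overlapped another in the members' windows. There were 12 windows for 9 of the genes, and Per2 was not in the table. The E-box was found for 3 of these 9 genes, Per1, Cry1 and Tef, and 7.15% of all 32851 windows hold it. The E-prime box was found for Cry1 and Nr1d1, against 4.68% of all windows. The D-box was found for Per3, the RORE for Arntl and the CRE for Hlf, against 1.06%, 0.384% and 1.79% of all windows. The gene counts take a match in any window of a gene, while the shares are per window, so they are not the same measure. The second listed start of Per1 held none of the motifs. A match is a description of the letters and not a measured binding site. The short runs around the E-boxes of Cry1 and Tef and the D-boxes of Per3 show the motifs of the loop and of its output arm in genes with no probe that passed the test.
Cry1 E-box, chr10:85185097-85185126, minus strand: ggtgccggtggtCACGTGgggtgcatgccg
Tef E-box, first start, chr15:81802534-81802563, plus strand: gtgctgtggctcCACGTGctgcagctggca
Tef E-box, second start, chr15:81811264-81811293, plus strand: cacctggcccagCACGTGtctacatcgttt
Per3 D-box, chr4:151044851-151044882, minus strand: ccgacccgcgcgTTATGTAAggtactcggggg
Per3 D-box, chr4:151044804-151044835, minus strand: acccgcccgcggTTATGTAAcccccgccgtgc

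The arrays had similar shares of detected probes. In GLN 67.1% to 71.4% of probes were well above background, and in PDLN 59.6% to 62.6%. All 4 arrays shared 1 slide and 1 scan, no spot was saturated, and the pairwise Pearson correlation of their log2 ratios over tested probes ran from 0.16 to 0.63. PDLN of mouse 3 stood apart, with a median log2 ratio of −4.75 over 10 probes of exocrine pancreas genes, against values between −0.27 and 0.85 in the other mice. On adipocyte genes GLN of mouse 1 and PDLN of mouse 2 stood apart, with summed intensities over the list of 45525, 14044, 5570 and 5714 in the GLN of mice 1 to 4 and 11342, 47425, 6874 and 18357 in their PDLN. Values without each of these mice are therefore given beside the clock calls. The 13 probes of T and B cell markers, which define lymph node tissue, all passed the filter.

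Of the 15 clock probes tested, 2 were lower in GLN, the probes of Per1 and Hlf, and none was higher, in limma's moderated test with Benjamini-Hochberg adjustment at 0.05 over all probes. Across all tested probes 4.92% were lower and 2.99% were higher, 7.92% together. At an unadjusted p below 0.05 there were 5 of the 15 clock probes, beside 30.3% of all tested probes. The median log2 ratio of the clock probes was 0.01, beside 0.02 over all tested probes, and their ratios ranged from −0.48 to 0.26. In all 4 mice 3 of the 15 were below 0 and 3 above 0, whereas 18.0% of all tested probes were below 0 and 22.8% above 0 in every mouse. These counts are a description of 15 probes that share genes, with several probes for Per2, Cry1, Nr1d1 and Tef.

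**Figure D1:**
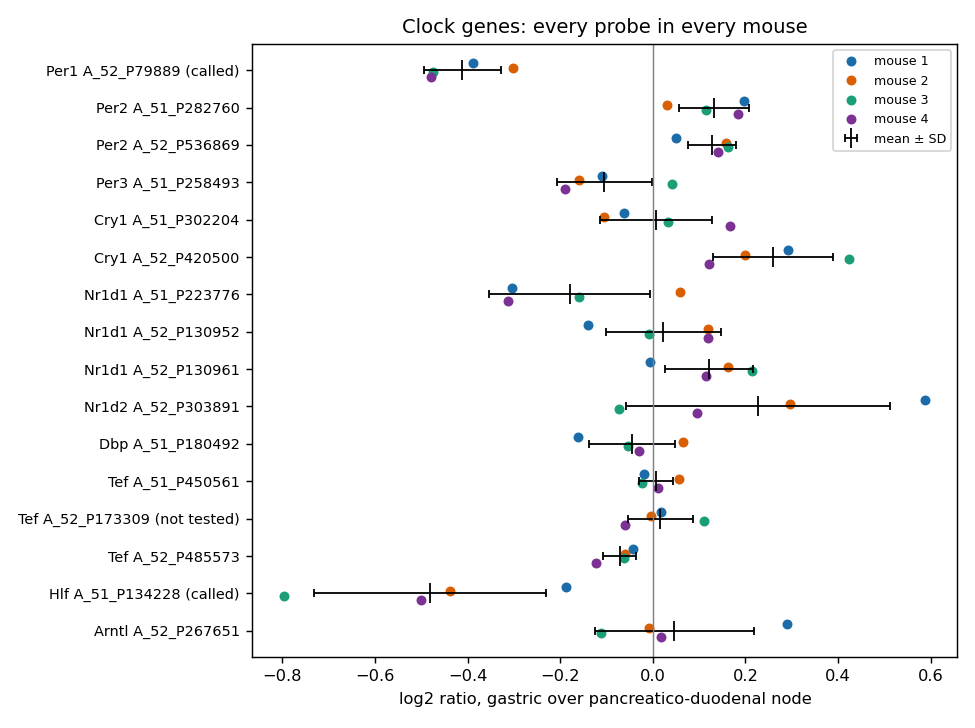
Log2 ratio of GLN over PDLN for the 16 probes of the 10 clock genes, ordered by role, with a point for each of 4 mice and the mean ± SD in black. Per1 and Hlf lie below 0 in every mouse, whereas most other probes straddle 0 or stay within 0.3 of it.

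The period genes encode the negative limb of the loop, and of the 3 only Per1 passed the test. The log2 ratio of Per1 (probe A_52_P79889) was −0.39, −0.30, −0.48 and −0.48 in mice 1 to 4. Every mouse had less Per1 signal in GLN, and the 4 values were close together. The mean was −0.41 ± 0.08 (SD, n = 4; 95% interval −0.54 to −0.29), or 0.752 times the PDLN signal, with a limma adjusted p of 0.0227. This placed Per1 at the 2.74th percentile of log2 ratios among tested probes. The Per1 call was kept without mouse 1 (limma adjusted p = 0.0172) and lost without mouse 2 (0.126), without mouse 3 (0.0811) and without mouse 4 (0.142), and the ratio stayed between −0.45 and −0.39. On the whole array the fits without mouse 2, 3 and 4 called 0, 5 and 3 probes lower and 0 higher. Losing the call in those fits was therefore not particular to Per1. With each array centred on its median in place of loess, the Per1 ratio was 0.10, which is −0.19 relative to the median of all probes. That setting moved the median of all probes to 0.29 and called 2859 probes lower and 16108 higher, against 1359 lower and 826 higher as reported.

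Per2, the closest relative of Per1, was measured by 2 probes that lay above 0 in all mice. For Per2 probe A_51_P282760 the log2 ratios were 0.20, 0.03, 0.11 and 0.18, and for probe A_52_P536869 they were 0.05, 0.16, 0.16 and 0.14. Each probe averaged 0.13, with SDs of 0.08 and 0.05, and neither passed (limma adjusted p = 0.142 and 0.127). Per3, a period gene that is dispensable for the core rhythm in mice, had log2 ratios of −0.11, −0.16, 0.04 and −0.19. Mouse 3 was the exception in sign, and the mean of −0.10 ± 0.10 (SD, n = 4) did not pass (adjusted p = 0.256).

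Cry1, which encodes a cryptochrome that represses the CLOCK and ARNTL pair, gave values that differed between its probes. Probe A_51_P302204 had log2 ratios of −0.06, −0.11, 0.03 and 0.17 and a mean of 0.01 ± 0.12 (SD, n = 4). The mice were divided in sign. Probe A_52_P420500 had log2 ratios of 0.29, 0.20, 0.42 and 0.12, with a mean of 0.26 ± 0.13 (SD, n = 4). That probe was well above background in 3 of 4 GLN channels and in 0 of 4 PDLN channels, so it passed the filter only through GLN and its PDLN level is a bound. GLN was at least 1.07-fold above the PDLN floor, with measured mean levels of 6.37 in GLN and 6.11 in PDLN (log2 intensity; limma adjusted p = 0.0588). Since the probe entered the test through the node where it was brighter, its p supports no difference.

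The REV-ERB receptors are haem-binding repressors of Arntl, and no probe of either passed the test. Nr1d1 was measured by 3 probes whose means differed in sign. Probe A_51_P223776 had log2 ratios of −0.30, 0.06, −0.16 and −0.31, probe A_52_P130952 had −0.14, 0.12, −0.01 and 0.12, and probe A_52_P130961 had −0.01, 0.16, 0.21 and 0.11. Their means were −0.18 ± 0.17, 0.02 ± 0.12 and 0.12 ± 0.09 (SD, n = 4 each), and limma's adjusted p was 0.172, 0.825 and 0.190. Nr1d2 (probe A_52_P303891) had log2 ratios of 0.59, 0.30, −0.07 and 0.09. Mouse 1 was far above mouse 3, and the mean of 0.23 was smaller than the SD of 0.28 over the mice (adjusted p = 0.223). In mouse 1, which had the highest ratio, the GLN level was the highest, 8.71 against 8.28 to 8.59 in the GLN of the other mice, and the PDLN level was the lowest, 8.12 against 8.28 to 8.49 in their PDLN (log2 intensity).

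The PAR bZIP factors are the output arm, and Hlf alone among them passed the test. The log2 ratio of Hlf (probe A_51_P134228) was −0.19, −0.44, −0.80 and −0.50 in mice 1 to 4. All mice had less Hlf signal in GLN, but mouse 3 lay much farther from 0 than mouse 1. The mean was −0.48 ± 0.25 (SD, n = 4; 95% interval −0.72 to −0.24), or 0.717 times the PDLN signal, with a limma adjusted p of 0.0452. This was the 1.80th percentile of log2 ratios among tested probes. The Hlf call was kept without mouse 1 (limma adjusted p = 0.0171) and lost without mouse 2 (0.167), without mouse 3 (0.0951, ratio −0.38) and without mouse 4 (0.181). As given above for Per1, the fits without mouse 2, 3 or 4 lost nearly all calls on the array. In the scanner software's own ratio the Hlf value was −0.80 and did not pass (adjusted p = 0.0651). Hlf was a dim probe, with a mean log2 intensity of 7.31.

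Dbp, a strongly rhythmic PAR factor in most tissues, did not pass the test. Its log2 ratios were −0.16, 0.07, −0.05 and −0.03, with a mean of −0.05 ± 0.09 (SD, n = 4; 95% interval −0.18 to 0.09; adjusted p = 0.592). Tef, the third PAR factor, had a mean of 0.01 ± 0.04 for probe A_51_P450561 and of −0.07 ± 0.04 for probe A_52_P485573, with adjusted p-values of 0.938 and 0.307. Tef probe A_51_P450561 stayed close to 0 in every mouse, at −0.02, 0.06, −0.02 and 0.01. Tef probe A_52_P485573 was below 0 in all mice, at −0.04, −0.06, −0.06 and −0.12. A further Tef probe, A_52_P173309, was not well above background in any channel and was not tested.

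Arntl, the activator of the loop, had log2 ratios of 0.29, −0.01, −0.11 and 0.02 (probe A_52_P267651). Mouse 1 stood above the others, and the mean of 0.05 ± 0.17 (SD, n = 4; 95% interval −0.14 to 0.23) did not pass (adjusted p = 0.695). Many clock probes were dim: 11 of the 16 had a mean log2 intensity below 8, where the offset used in background correction draws ratios toward 0. Such intensities were common on the array. Of all 27603 tested probes 7745 were below 7 and 5404 between 7 and 8, with a median of 8.15.

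Levels of the same probes also varied between mice, and for several clock genes both nodes of a mouse moved together. Levels are log2 intensities after normalization between arrays and are compared here only within a probe. Mouse and array are the same unit, so an effect of the mouse and an effect of its array cannot be told apart, and the labels used here give no hour of dissection. Dbp had levels of 11.71, 11.83, 11.83 and 12.11 in the GLN of mice 1 to 4, and 11.88, 11.77, 11.88 and 12.14 in their PDLN. Mouse 4 was highest in both nodes, and the spread between mice (0.40 in GLN and 0.37 in PDLN) was larger than the mean difference between nodes. Per1 had levels of 10.005, 9.89, 10.11 and 10.31 in GLN and 10.39, 10.19, 10.59 and 10.79 in PDLN. The order of the mice was the same in both nodes, with mouse 4 highest and mouse 2 lowest, and every GLN level was below the PDLN level of its own mouse although the ranges of the nodes overlapped. Hlf had levels of 7.26, 6.95, 6.75 and 7.31 in GLN and 7.45, 7.38, 7.55 and 7.81 in PDLN. For Hlf too mouse 4 was highest in both nodes, and no GLN level reached the lowest PDLN level.

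The same mouse, whichever it was, was highest in both nodes for 9 of the 15 tested clock probes (60.0%), beside 40.1% of all tested probes. Mouse 4, picked out after the values were seen, was that mouse for 8 of them (53.3% of the 15), beside 14.2% of all tested probes. These were the probes of Per1, Per3, Dbp and Hlf, both tested Tef probes, 1 of the Per2 probes and 1 of the Nr1d1 probes. The further clock genes described below did not share this: mouse 4 was highest in both nodes for 4 of their 26 tested probes (15.4%). Arntl ran the other way, lowest in mouse 4 in both nodes, at 9.60 in GLN and 9.59 in PDLN, against 9.67 to 9.99 in the GLN and 9.70 to 9.78 in the PDLN of the other mice. The other Per2 probe, A_51_P282760, was also lowest in mouse 4 in both nodes, so the Per2 probes disagreed. Mouse 4 was thus lowest in both nodes for 2 of the 15 clock probes (13.3%), close to the 12.8% of all tested probes. Nfil3, a repressor that competes with the PAR factors for D-boxes, was picked out after its values were seen. Its probe A_51_P111492 had levels of 8.79, 8.44, 8.53 and 8.27 in GLN and 8.85, 8.65, 8.63 and 8.35 in PDLN. Mouse 4 was lowest and mouse 1 highest in both nodes, whereas its other probe was highest in mouse 1 and lowest in mouse 2. No test between mice is possible with 1 array for each.

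**Figure D2:**
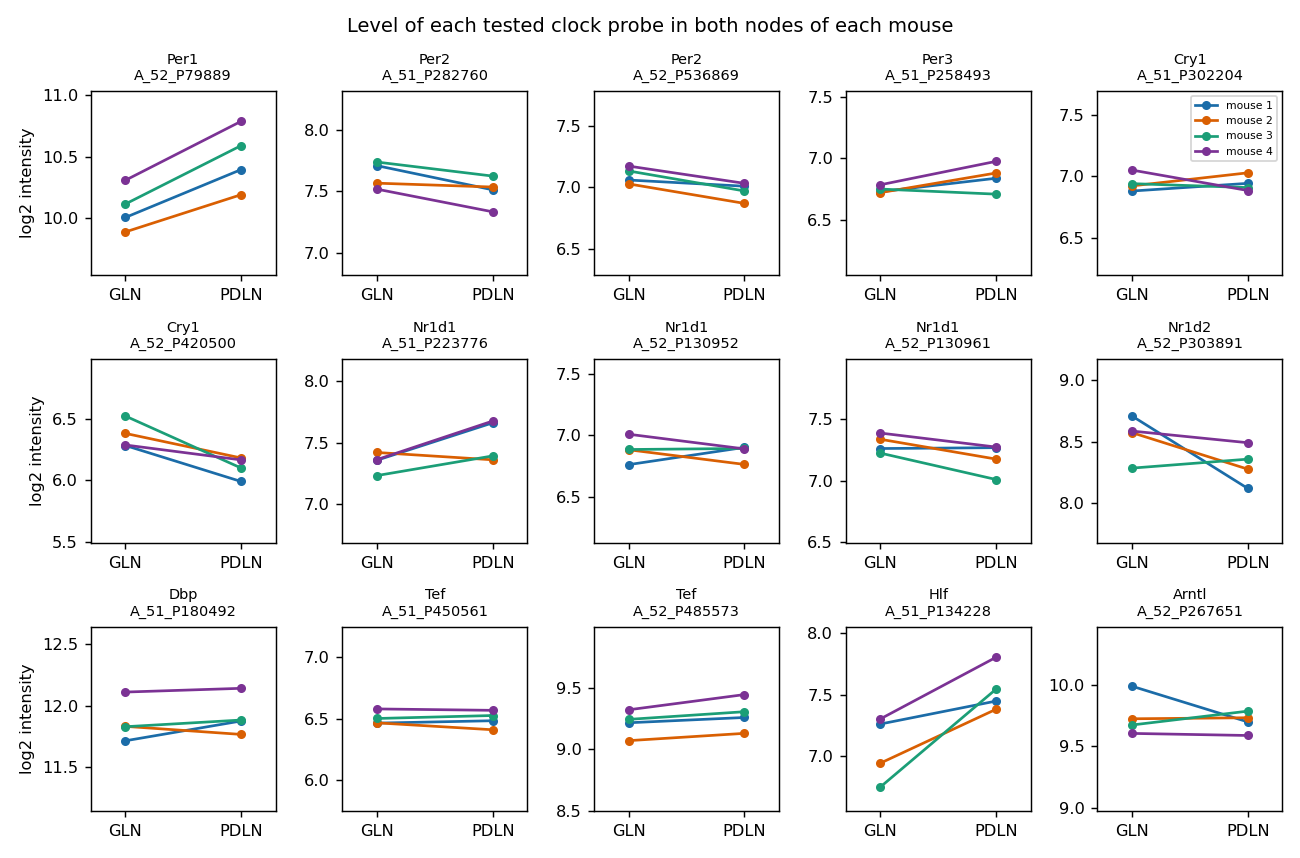
Level (log2 intensity) of each of the 15 tested clock probes in GLN (left) and PDLN (right), with a line for each mouse and the same axis height in all panels. Per1 and Hlf slope upward toward PDLN in every mouse, and mouse 4 lies on top in both nodes for 8 probes, Dbp among them.

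Glucocorticoid-induced genes were set beside Per1, since Per1 is induced by the same hormones. Of 12 tested probes for 8 of these genes, 1 was lower in GLN and none higher (limma, adjusted p at 0.05), which is 8.33% beside the 4.92% lower over all tested probes. At an unadjusted p below 0.05 there were 7 of the 12, beside 30.3% of all tested probes, and the median log2 ratio was −0.22, beside 0.02. The probe called lower belonged to Fkbp5, a chaperone of the glucocorticoid receptor (A_51_P383689, mean −0.32 ± 0.14, SD, n = 4, adjusted p = 0.0451). The 2 other Fkbp5 probes averaged −0.27 and 0.19 and were also among the 7, as were Mt1 and Mt2. In mouse 3 Mt1 and Mt2 lay farthest below 0, at −1.57 and −2.18. Tsc22d3, which encodes the glucocorticoid-induced leucine zipper, was picked out after its values were seen for its levels by mouse. Its probe A_51_P235821 had levels of 11.44, 11.41, 12.76 and 12.94 in GLN and 11.62, 11.52, 12.70 and 13.03 in PDLN. Mice 3 and 4 were above mice 1 and 2 in both nodes by more than 1 on the log2 scale, and the order of the mice was that of Per1 in both nodes. No other gene of the list had that order in both nodes. Sgk1 and Dusp1, for example, were highest in mouse 3 in both. Mice 3 and 4 were still above mice 1 and 2 in both nodes for Sgk1, Dusp1, Ddit4 and Fkbp5 probe A_52_P481493. Ddit4, for example, had levels of 13.42, 13.22, 14.35 and 14.61 in GLN and 13.87, 14.17, 14.67 and 14.68 in PDLN. Klf9, Mt1, Mt2 and the 2 other Fkbp5 probes did not have this split in both nodes. The split was looked at after the values were seen. The log2 ratio of this Tsc22d3 probe between nodes was −0.08 ± 0.10 (SD, n = 4). Whether the levels of Per1 and Tsc22d3 are related was not tested.

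Among non-lymphoid cell types, macrophage, fibroblastic stroma and blood endothelium markers included several lower probes, and smooth muscle markers 1. Adipocyte and erythroid markers included none. Over all tested probes 4.92% were lower and 2.99% higher, and the counts below are to be read beside these shares. Among macrophage markers 7 of 10 probes were lower in GLN, with a median log2 ratio of −0.76 and medians of −0.43, −0.85, −1.20 and −0.71 in mice 1 to 4. Cd163, a scavenger receptor of resident macrophages, averaged −1.26 ± 0.30 (SD, n = 4, limma adjusted p = 0.0181). The summed intensity of macrophage markers was 14761 to 24282 in GLN and 30366 to 37304 in PDLN. Among fibroblastic stroma markers 5 of 10 probes were lower, with medians of −0.27, −0.41, −0.82 and −0.55 in mice 1 to 4, and summed intensities of 22711 to 47397 in GLN and 50943 to 66459 in PDLN. Col3a1, a fibrillar collagen, averaged −0.84 ± 0.34 on probe A_51_P515605 (adjusted p = 0.0289) and −0.12 on probe A_52_P684242, which was not called. The stroma probes were not uniform. Of the 10, 9 averaged below 0, and Pdgfrb averaged 0.08 ± 0.30. Dcn and Lum, not called, were above 0 in mouse 1, at 0.20 and 0.34. Among blood endothelium markers 3 of 6 probes were lower, with medians of −0.16, −0.43, −0.55 and −0.50, and sums of 5745 to 8081 in GLN and 8631 to 9398 in PDLN. Tie1, an endothelial receptor kinase, averaged −0.58 ± 0.07 (adjusted p = 0.0181). All 6 endothelium probes averaged below 0, but Cdh5 probe A_52_P248604 only at −0.01 ± 0.21, with mice of either sign. The mice fell in 1 order, from mouse 3 (lowest) through mice 4 and 2 to mouse 1, for Hlf and for the stroma and endothelium medians. Macrophage medians had the same extremes with mice 2 and 4 exchanged, and Per1 did not follow this order. Smooth muscle markers had 1 of 8 probes lower and a median of −0.05, and T cell markers 1 of 8 probes higher and a median of 0.14. Adipocyte markers had none of 9 tested probes called, and their medians differed in sign between mice, at 1.72, −1.62, 0.12 and −1.49 in mice 1 to 4. The erythroid markers tested were 1 probe each of Hba-a1, a haemoglobin chain, and Alas2, an enzyme of haem synthesis. Both were above 0 in all mice, with means of 1.46 ± 1.35 and 0.84 ± 0.89 (SD, n = 4 each), and neither was called. All probes of the macrophage, stroma, endothelium, smooth muscle and T cell lists passed the filter, so none was at background in both nodes. The part of these cells in the lower Hlf and Per1 signal was not tested, and in RNA of a whole node fewer cells of a type and less RNA per cell cannot be told apart.

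**Figure D3:**
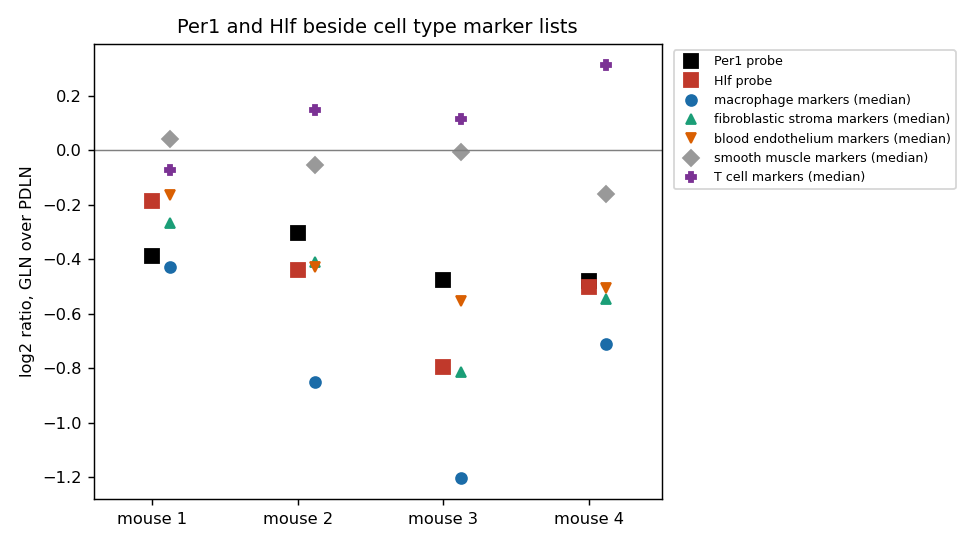
Log2 ratio of GLN over PDLN in each mouse for the Per1 and Hlf probes (squares) and the median over each marker list (other symbols). Hlf lies close to the stroma median in all 4 mice and is lowest in mouse 3, as that median is, whereas Per1 stays between −0.48 and −0.30.

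Genes whose 4 log2 ratios lay nearest to those of Per1 and Hlf were found among 13375 named genes by the mean absolute difference over the 4 mice. For Per1 they were Lrfn3 (mean absolute difference 0.0212), Nr1h4 (0.0331) and Tmem204 (0.0350). For Hlf they were Cmtm8 (0.0279), Cd302 (0.0382) and Hyal2 (0.0415). All the genes listed for Hlf lay farthest from 0 in mouse 3, as Hlf did, which follows from how they were chosen. With 4 mice such closeness is a description only.

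The rest of the clock was covered by 20 further genes with 36 probes, of which 26 probes of 16 genes were tested. In GLN 2 probes were lower and 1 higher (limma, adjusted p at 0.05), which is 7.69% and 3.85% of the 26, beside 4.92% and 2.99% of all tested probes. At an unadjusted p below 0.05 there were 9 of the 26, beside 30.3% of all tested probes, and the median log2 ratio was 0.02, the same as over all probes. Npas2, a stand-in for CLOCK, was lower (A_52_P534749: −0.26, −0.25, −0.18 and −0.18 in mice 1 to 4; mean −0.22 ± 0.05, SD; adjusted p = 0.0447). The Npas2 ratios were tight, but the probe was well above background in only 3 of 4 GLN and 1 of 4 PDLN channels. Bhlhe41, also called DEC2, represses the CLOCK and ARNTL pair, and it was lower as well (A_51_P451176: −0.34, −0.16, −0.20 and −0.27; mean −0.24 ± 0.08, SD; adjusted p = 0.0464). The call of Npas2 and that of Bhlhe41 were each lost whichever mouse was left out, with adjusted p-values of 0.0535 to 0.182 and 0.0531 to 0.190. Without mouse 2, 3 or 4 nearly all calls on the array were lost as well, whereas 1924 probes were still called lower without mouse 1.

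Csnk1d encodes the casein kinase that marks PER proteins for destruction, and its probes disagreed. Probe A_51_P359813 was higher in GLN (0.34, 0.24, 0.36 and 0.35 in mice 1 to 4; mean 0.32 ± 0.05, SD; limma adjusted p = 0.0260), a call lost without mouse 2 (0.129), mouse 3 (0.0874) or mouse 4 (0.146). Those fits called 0 probes higher on the whole array. The 3 other Csnk1d probes averaged −0.14, −0.15 and −0.13 and did not pass, and with median centring they lay between 0.34 and 0.40. Of the roles with no call, the brightest probes were those of Cry2, the other cryptochrome (mean −0.07 ± 0.12), Rora, a receptor that activates Arntl through the RORE (0.08 ± 0.35), Timeless (0.07 ± 0.13) and Noct, a clock-controlled output gene (0.13 ± 0.11; SD, n = 4 for each). Arntl2, Rorb, Fbxl21 and Wee1 had no probe that passed the filter.

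In mouse 1 the PDLN levels of Clock probes A_52_P334670 and A_52_P334677 and of the Rora probes were the lowest, a feature chosen after their values were seen. The CLOCK partner of ARNTL gave log2 ratios of 0.84, 0.06, −0.21 and −0.15 on the Clock probe A_52_P334670, where GLN of mouse 1 was the highest, at 9.02 against 8.67 to 8.78 in the GLN of the other mice, and PDLN of mouse 1 the lowest, at 8.18 against 8.72 to 8.88. Rora (A_52_P652442) was at 8.59 in GLN of mouse 1, within the 8.22 to 8.71 of the other mice, and at 8.08 in PDLN of mouse 1, against 8.53 to 8.66. Nr1d2, described above, had its highest GLN and its lowest PDLN level in the same mouse. The third Clock probe, A_52_P161365, did not share this feature. Its PDLN level was lowest in mouse 3, at 6.29, against 6.34 in mouse 1. It had log2 ratios of 0.23, 0.17, 0.19 and 0.16, and it was well above background in 4 of 4 GLN and 2 of 4 PDLN channels.

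**Figure D4:**
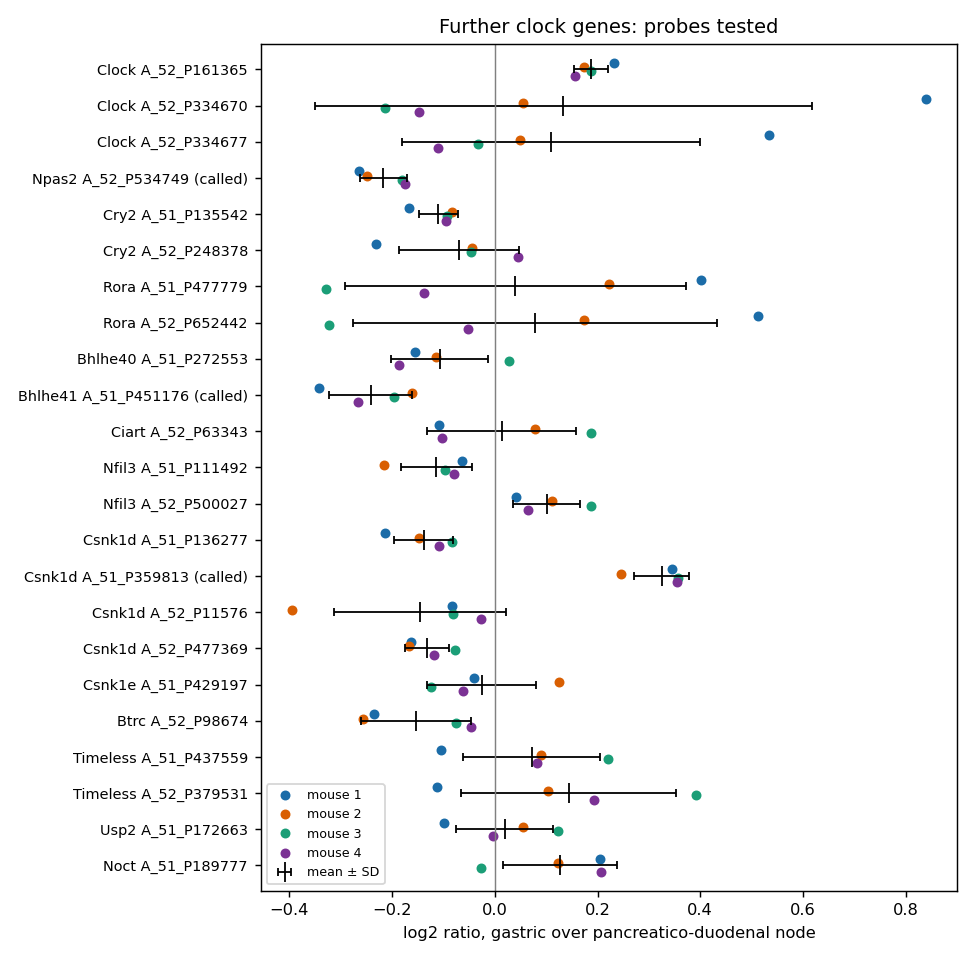
Log2 ratio of GLN over PDLN for 23 tested probes of 14 further clock genes, with a point for each mouse and the mean ± SD in black. Npas2 and 1 Bhlhe41 probe lie below 0 and 1 Csnk1d probe above 0 in every mouse, and mouse 1 lies far to the right for 2 Clock probes and Rora.

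The Per1 and Hlf differences were followed through the processing settings. Under 17 alternatives Per1 kept its direction and its call in 12, and Hlf in 10. The 4 settings that ended the Per1 call with its direction kept were the fits without mouse 2, 3 or 4 and the fit that ignores the pairing of nodes within a mouse (adjusted p = 0.104). The Hlf call was ended by 7 settings, which included the fits without mouse 2, 3 or 4 and the unpaired fit (limma adjusted p = 0.0761). The others were the scanner software's ratio (0.0651), the authors' series table (0.0650) and the trended eBayes variance (0.0573). For Hlf the direction was kept in every setting tried, with ratios from −0.80 to −0.32.

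**Figure D5:**
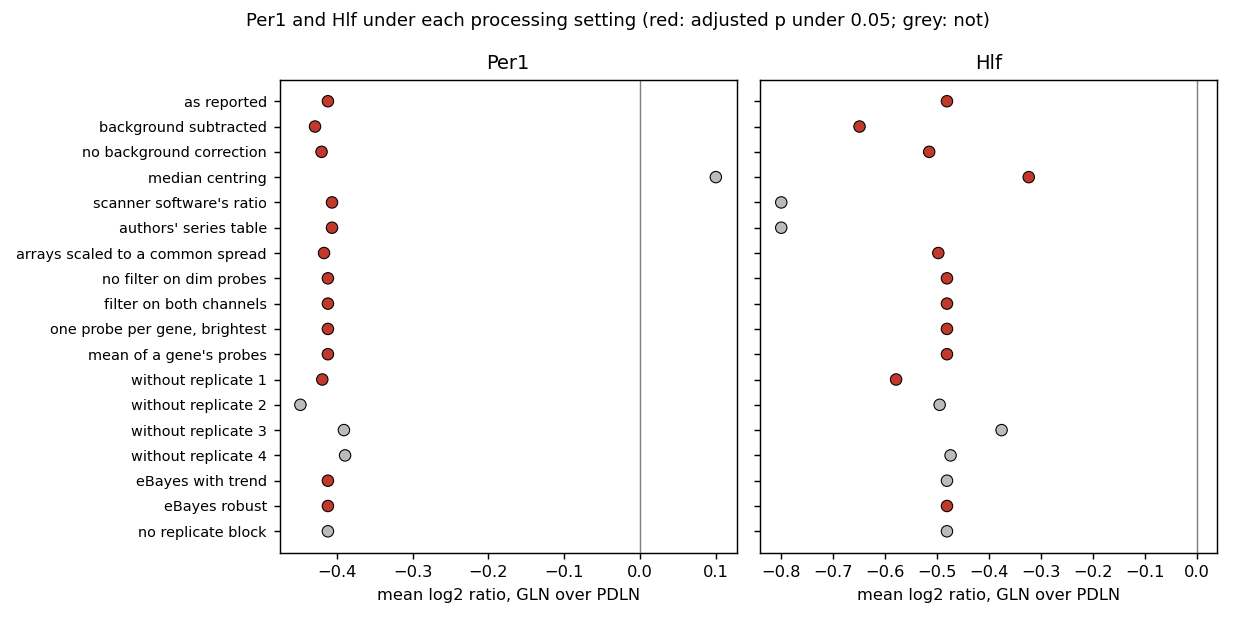
Mean log2 ratio of GLN over PDLN of the Per1 probe (left) and the Hlf probe (right) under each processing setting, red where limma's adjusted p was below 0.05 and grey where it was not. Per1 stays between −0.45 and −0.39 except at 0.10 with median centring, and Hlf runs from −0.80 to −0.32.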

How the data were processed

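Total RNA of GLN and PDLN of 4 mice was amplified, labelled and hybridised, per the labels' protocols. The deposited scanner files, made with Agilent Feature Extraction 10.2.1.3 per the file headers, hold mean, background and processed intensity for 45018 spots and the log10 ratio of processed Cy5 over Cy3. The authors' deposited series table holds log2 values, which equalled the mean over spots of the log2 processed Cy5 over Cy3 ratio within 5.11e-05, and its column medians were −0.1535, −0.05675, −0.0341 and −0.0272.

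Background was removed from mean signals with normexp (offset 50, on the median background), which shrinks ratios of dim probes, and arrays were normalized by loess within each array in limma 3.58.1 (R 4.3.3; package data.table, version 1.17.8). Levels additionally had Aquantile normalization. Spots of a probe were averaged, and outlier spots were left out. Probes called well above background on 3 or more of the 4 arrays, counted in 1 and the same channel, were tested with lmFit and eBayes against 0, adjusted over 27603 probes at 0.05. Names come from a RefSeq table (GRCm38.p6), through transcript accessions, which named 24844 probes. Promoter coordinates are those of that table, not of the array annotation. Zbtb16, Cd68 and Hbb-b1 of the lists had no matched probe. The steps were tested on simulated data. Alternatives covered background correction, normalization, the dim-probe filter, probe choice, each mouse left out, the variance model and the pairing.

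The members and gene lists were chosen with earlier results of these data known. Named genes were all members with every probe, further clock genes with a call, the brightest probe of each role without one and genes under the filter, at most 2 called genes of each other list, and the 3 genes nearest to each called member; genes picked after their values were seen are marked as such. Values of 2 further clock genes are counted in the totals but not reported singly here. The 4 mice are separate animals. Their small number limits precision.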

Additional observations from a re-analysis of the deposited data

Results flagged for a closer look

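In 4 of 52 clock probes, members and further genes together, 1 mouse lay far from the other 3, with a gap to the nearest of them that took up more of the probe's range than the critical value of Dixon's test allows for 4 values. Chance alone flags about 1 group in 20. None of the 4 probes belonged to Per1, Hlf or another of the 10 members. Cry2 probe A_51_P135542 had a log2 ratio of −0.17 in mouse 1, against −0.10 to −0.08 in the other mice. Mouse 2 set apart the remaining 3. Its log2 ratio was −0.20 for the untested, dim Bhlhe41 probe A_52_P618912, against −0.02 to 0.01 in the other mice. It was 0.24 for the Csnk1d probe that was called higher, A_51_P359813, against 0.34 to 0.36 in the others. It was −0.39 for Csnk1d probe A_52_P11576, against −0.08 to −0.03 in the others.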

How the results depend on the processing

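Of 240 values of member probes under the alternatives, 19 had the opposite sign, mostly near 0. With the arrays centred on the median, where the median of all probes was 0.29, the sign turned for Per1 (0.10), Cry1 (−0.014, A_52_P420500), Nr1d1 (0.011), Dbp (0.54), Tef (−0.13 and 0.38), Cry2 (0.19), Bhlhe40 (0.37), Ciart (−0.16), Nfil3 (0.27), Csnk1d (0.36, 0.40 and 0.34) and Csnk1e (0.58). Member probes called were then 1 lower and 7 higher, further probes 17 higher, and all probes 2859 lower and 16108 higher. With the scanner software's ratio the sign turned for Cry1 (−0.0022), Nr1d1 (−0.0026), Tef (−0.0099) and Usp2 (−0.023), with the same values in the series table, and Tef was at −0.0061 without background correction. Both sources gave 1 lower and 1 higher member probe, 1 lower and 0 higher further probes, and 494 higher probes in all, with 738 lower in the scanner's ratio and 739 in the series table. At an unadjusted p below 0.05 there were 6 further probes. The cause was not tested.

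Background subtraction gave 1 higher member probe and 2 higher further probes. The higher member probe was Cry1 A_52_P420500, as in the scanner's ratio and the series table, and it was well above background in 0 of 4 PDLN channels, so it entered the test only through GLN and its calls support no difference. Without background correction 0 further probes were lower, with 10 at an unadjusted p below 0.05. Scaling arrays to a common spread gave 1312 higher probes and 2 higher further probes, no filter 2 higher further probes, and the filter on both channels 1 lower further probe. The mean of a gene's probes gave 0 higher further genes, with 4 at an unadjusted p below 0.05. With a trended eBayes variance 1 member and 0 further probes were lower, 0 further probes higher, and 531 probes lower and 0 higher in all, with 8562 at an unadjusted p below 0.05. Without the replicate block, which drops the pairing of nodes within a mouse, 0 member probes and 1 further probe were lower (3 and 7 at an unadjusted p below 0.05), with 829 lower and 408 higher probes in all. The log ratio pairs nodes of the same animal by design.

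Leaving out 1 mouse gave 0 to 2 lower and 0 higher member probes, 0 lower and 0 to 1 higher further probes, and 0 to 1924 lower and 0 to 1128 higher probes in all. The totals of lower probes were 0 without mouse 2, 5 without mouse 3 and 3 without mouse 4, with 5580, 7363 and 5558 at an unadjusted p below 0.05. Ratios that changed sign ranged from −0.046 to 0.045 for Cry1, −0.0099 to 0.077 for Nr1d1, −0.011 to 0.016 for Tef, −0.035 to 0.10 for Arntl, −0.10 to 0.25 and −0.031 to 0.18 for Clock, −0.081 to 0.16 and −0.067 to 0.21 for Rora, −0.045 to 0.054 for Ciart, −0.076 to 0.0071 for Csnk1e and −0.016 to 0.058 for Usp2. Dim probes are limited by signal over background.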
